A study of Mus musculus with 4 samples.

Results

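The genes described here encode the protein machinery that chooses splice sites: the heterogeneous nuclear ribonucleoproteins (hnRNPs), the SR proteins and the SF3a and SF3b subunits of the U2 small nuclear ribonucleoprotein (snRNP). Members were taken by symbol from the deposited count tables: every row beginning with Hnrnp or Hnrp, or with Srsf, Sfrs, Sf3a or Sf3b and a digit. The rule gave 40 of 23284 gene rows: 20 hnRNP genes, 12 SR genes and 8 SF3 genes. Of these, 39 had enough reads to be tested, among 13215 tested genes in all. The exception was Srsf12, an SR gene with 2 reads in control replicate 2 and 0 in the other libraries, at or below the limit of 3 reads that a count of 0 allows.

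RNA was sequenced from sorted leukemic cells of the mouse strain C57BL/6 with high c-Kit, a receptor of immature blood cells. The series concerns leukemia driven by MLL and compares 2 Msi2 -/- libraries with 2 Msi2 flox/flox libraries, the latter called controls. By the design text the libraries came from 4 mice. Msi2 encodes a Musashi-family RNA-binding protein, and flox/flox marks alleles with loxP sites that remain intact unless Cre is present. Which Cre was used, which MLL fusion drove the leukemia, the age of the mice and what cells of a host remained are not stated in the labels.

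hnRNPs coat nascent pre-mRNA and often block splice sites. SR proteins carry stretches rich in serine and arginine, bind exons and recruit the spliceosome. SF3a and SF3b hold the U2 snRNP on the branch point. In myeloid neoplasms SRSF2 and SF3B1 are among the recurrently mutated splicing genes. Many SR and hnRNP genes also limit their own output through exons or introns that send the transcript to nonsense-mediated decay. Musashi proteins have RNA recognition motifs related to those of the hnRNP A/B proteins.

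Reads assigned to genes ranged from 72273679 to 87564774 per library. Msi2 itself had 2804 and 3562 reads in the controls and 8 and 17 in the Msi2 -/- libraries. Levels are given in CPM (gene-assigned reads scaled to a common library size with TMM factors). Kit stood at 50.4 and 51.9 CPM in control mice, against 68.1 and 57.1 CPM in Msi2 -/- mice. These groups did not overlap (log2 fold change 0.29, edgeR adjusted p = 0.396). Of the 10 markers of immature myeloid and leukemic cells, 0 were higher and 3 lower at an unadjusted edgeR p under 0.05 (Mpo, Myb and Flt3), and DESeq2 called Mpo and Myb lower. Mpo, a granule enzyme of immature myeloid cells, had 4001 and 4952 CPM in control mice, against 2116 and 2159 CPM in Msi2 -/- mice. The 10 summed to 13908 and 14140 CPM in control mice, against 9579 and 15146 CPM in Msi2 -/- mice. Of the markers of other lineages, Cd3e, Cd8a, Pax5, Ms4a1, Ncr1 and Hba-a1 had 0 reads in every library, but not all were near 0. Cd79b, a B-cell receptor subunit, stood at 18.5 to 26.3 CPM and was called lower by DESeq2. Mcpt8 of basophils stood at 9.77 to 22.5 CPM, Lck of T cells at 6.498 to 9.946 CPM, Pdgfrb of stroma at 3.56 to 12.3 CPM, and Tfrc, the transferrin receptor, which dividing cells also express, at 342 to 373 CPM. The 10 late neutrophil markers summed to 1024 and 678 CPM in control mice, against 1398 and 2225 CPM in Msi2 -/- mice, and the 9 measured monocyte markers to 1502 and 1466 CPM, against 1035 and 2164 CPM. Single genes in these sums went both ways. Of the late neutrophil markers DESeq2 called 4 higher (S100a8, S100a9, Ltf and Lcn2) and 1 lower (Cxcr2). Of the monocyte markers it called 1 higher (Csf1r) and 1 lower (Irf8). Both controls held Xist together with Y-linked transcripts: Xist stood at 1454 and 654 CPM and Ddx3y at 13.3 and 59.7 CPM. In the Msi2 -/- libraries Xist was at 0.469 and 0.624 CPM and Ddx3y at 72.0 and 75.6 CPM. Xist thus split the libraries in the same way as genotype, so differences tied to either cannot be told apart here. Whether a control library held cells of several mice was not tested. What part all these marker differences have in the results below was not tested either. In these bulk samples, fewer cells with a transcript and less transcript per cell cannot be told apart.

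The splicing factor genes as a whole held a similar share of the reads in both genotypes. All 40 rows together took 13962 and 14365 CPM in control mice, against 14613 and 13837 CPM in Msi2 -/- mice, on average 1.42% of gene-assigned reads. The controls lay inside the range of the Msi2 -/- libraries, so the groups overlapped. hnRNP genes made up most of it, with sums of 8557 and 8992 CPM in control mice, against 9091 and 8518 CPM in Msi2 -/- mice. SR genes summed to 3467 and 3442 CPM in control mice, against 3486 and 3354 CPM in Msi2 -/- mice. SF3 genes summed to 1938 and 1931 CPM in control mice, against 2035 and 1965 CPM in Msi2 -/- mice, where both libraries lay above both controls by a few percent.

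**Figure D1:**
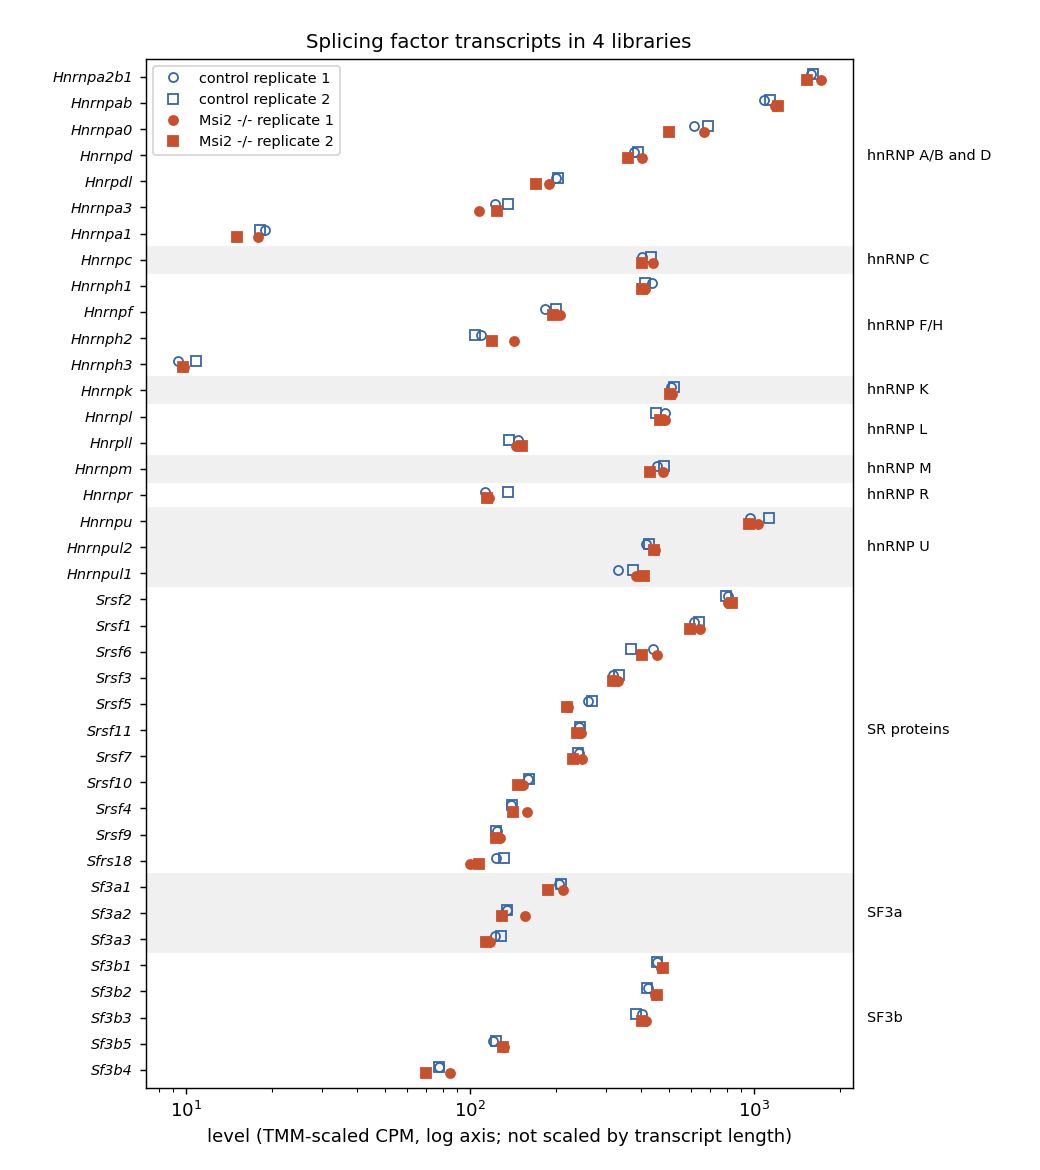
Level of each of the 39 tested genes in every library, in TMM-scaled CPM on a log axis, grouped by protein family; open blue symbols are controls, filled red symbols Msi2 -/- libraries, circles replicate 1 and squares replicate 2. For most genes the 4 symbols lie close together, from about 9.32 CPM for Hnrnph3 to 1713 CPM for Hnrnpa2b1.

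Levels among the genes spanned a wide range. Scaled by the length of the principal transcript, Hnrnpa2b1 stood highest at 982 CPM per kb (mean of 4 libraries), followed by Srsf2 at 611 and Hnrnpab at 487 CPM per kb. Hnrnpa0, Hnrnpl, Hnrnpk and Hnrnph1 followed between 187 and 230 CPM per kb. Sfrs18, Hnrnpa1 and Hnrnph3 stood lowest of the tested genes, at 25.4, 9.13 and 4.49 CPM per kb. Transcript lengths came from GENCODE M21, an annotation of a later build than the one the reads were counted on, so the order is approximate. Where a gene had several principal transcripts, that of median length was taken, and the order depends on this choice. The transcript taken had 1638 bases for Hnrnpa2b1, 1326 for Srsf2 and 2370 for Hnrnpab. All annotated exons of these genes together cover 6584, 2958 and 2782 bases.

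Some members have near-identical copies elsewhere in the genome. Of the 40 genes, 8 matched at least 1 annotated pseudogene at 95% identity or more over 25% or more of the principal transcript. Hnrnpa3 matched 26 pseudogenes that together covered 100% of its transcript. Hnrnpa1 matched 9 that covered 58.5%, and Hnrnpf 5 that covered 55%. The deposited files list 0 reads as not uniquely aligned in every library, and how such reads were handled is not stated in the labels. Pseudogenes also covered 66.6% of the transcript of Sf3b4, 64.9% of that of Hnrnpr and 51.3% of that of Hnrnpk. The absolute levels of the 8 matched genes, Hnrnpa1 and Hnrnpa3 among them, are therefore uncertain, while each library passed through the same steps. Hnrnph3, at 9.32 to 10.8 CPM, had no such match. Exon sequence was shared with a neighbouring gene over more than 10% of its length for 6 genes, among them Srsf4 (43%), Hnrnpab (29.1%) and Srsf2 (25.3%), each with a gene on the opposite strand.

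No member passed edgeR's test between genotypes, and Srsf5 alone passed DESeq2's. By edgeR's quasi-likelihood test with Benjamini-Hochberg adjustment over all genes, 0 of 39 members were called higher, against 0% of all tested genes, and 0 lower, against 0.00757% (Ikzf2 alone). This test did not call Msi2 itself either (edgeR adjusted p = 0.122), so the lack of an edgeR call says little about a single member. At an unadjusted p under 0.05, 1 member was higher (Hnrnph2), against 6.69% of all tested genes, and 2 were lower (Srsf5 and Sfrs18), against 6.17%. Of tested genes at 100 CPM or more, where 36 of the members lie, 16.9% had an unadjusted p under 0.05 in either direction. DESeq2 called 0 members higher, against 3.21% of the genes it tested, and 1 lower (Srsf5), against 2.79%. The members' median log2 fold change, Msi2 -/- minus control, was -0.01, with 18 above 0 and 21 below, and that of all tested genes -0.0020. It was -0.04 without Msi2 -/- replicate 1 and 0.04 without replicate 2. With 2 against 2 libraries an exact permutation test of any single value cannot go below 0.333, so none is given.

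The fitted changes were small. Only 2 members (Sfrs18 and Hnrnph2) had a fitted change over 1.2-fold in either direction, where 36.3% of all tested genes and 17.0% of tested genes at 100 CPM or more had one. The median size of the log2 fold change was 0.07 for the members, 0.18 for all tested genes and 0.11 for tested genes at 100 CPM or more. For 37 of the 39 members the 95% interval of the fold change, from edgeR's fit, lay within 1.5-fold in both directions. The same held for 48.2% of all tested genes and 83.0% of those at 100 CPM or more. The 2 exceptions were Hnrnpa0 and Hnrnph2. These intervals bound the size of a change that the libraries allow, and do not show that levels were equal. No member's replicates differed by more than 1.5-fold within a group, whereas 3389 of the 13215 tested genes had replicates that far apart. Among tested genes at 100 CPM or more, where most members lie, only 126 of 2654 did.

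**Figure D2:**
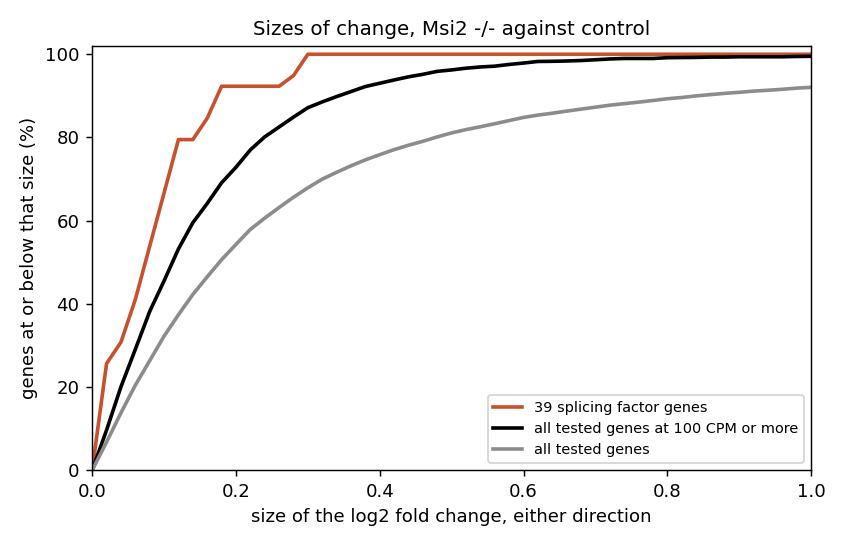
Percent of genes (vertical axis) whose log2 fold change has at most the size on the horizontal axis, for the 39 tested splicing factor genes, all tested genes at 100 CPM or more and all tested genes. The splicing factor curve reaches 100% at a size of 0.30, where 87.2% of genes at 100 CPM or more and 67.9% of all tested genes have been reached.

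**Figure D3:**
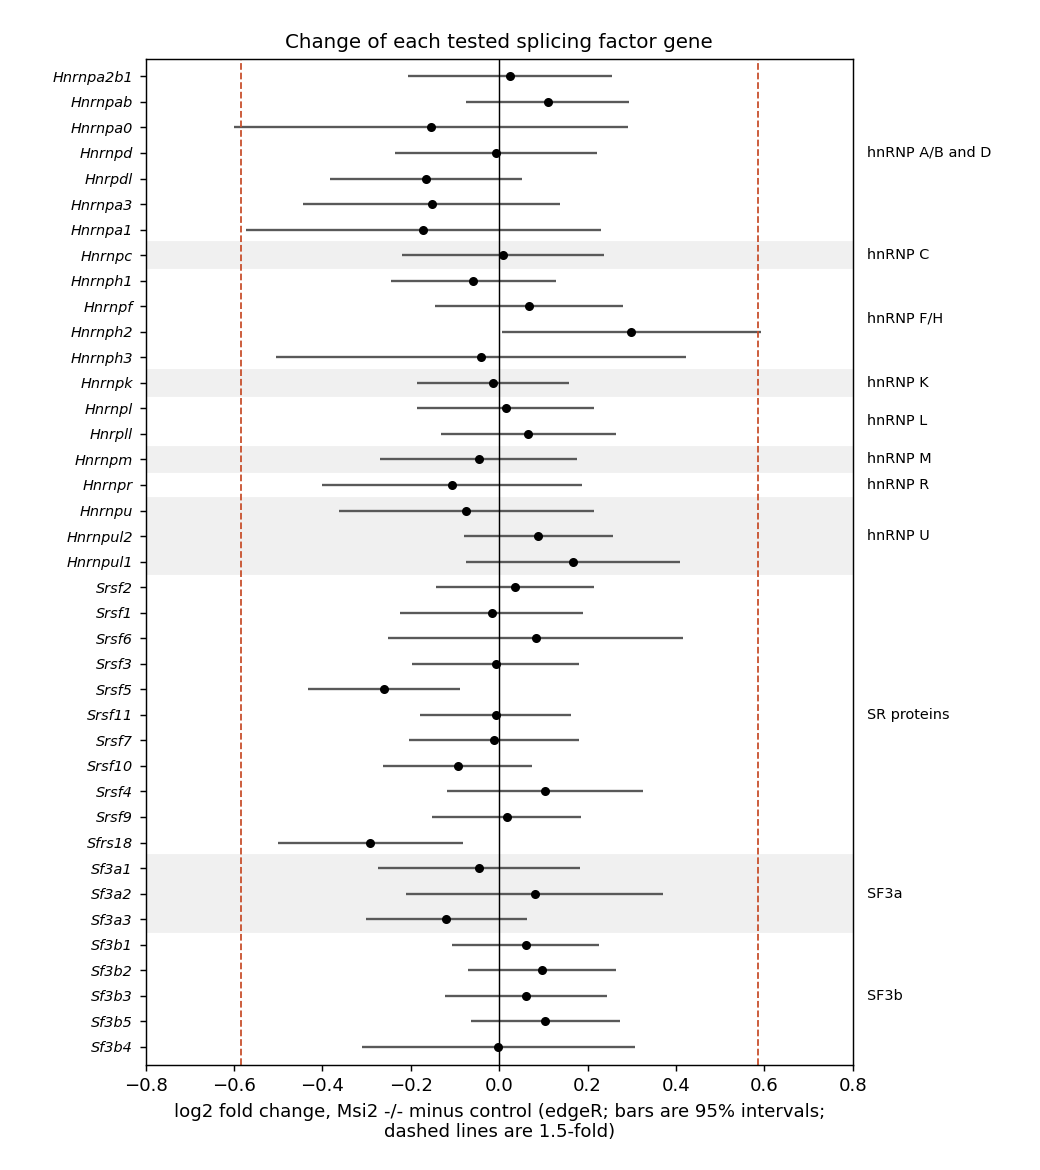
Log2 fold change of each tested gene, Msi2 -/- minus control, with its 95% interval from edgeR's fit to 2 libraries per group; dashed lines mark 1.5-fold. The intervals of Srsf5, Sfrs18 and Hnrnph2 leave out 0, before any adjustment for the number of genes, and those of the other 36 genes include it.

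The hnRNP A/B and D proteins, the closest relatives of Musashi among these genes, bind A- and U-rich or UAG-containing RNA. Hnrnpa2b1, a core packaging protein that also sorts RNAs, stood at 1583 and 1608 CPM in control mice, against 1713 and 1533 CPM in Msi2 -/- mice. Its controls lay between the Msi2 -/- libraries (0.02 ± 0.085 (SE) on the log2 scale, edgeR adjusted p = 0.923). Hnrnpab, a related protein, had 1084 and 1136 CPM in control mice, against 1187 and 1208 CPM in Msi2 -/- mice. Both Msi2 -/- libraries lay above both controls, by 7.87% in the fit (0.11 ± 0.069 (SE) on the log2 scale, edgeR adjusted p = 0.548).

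Hnrnpa0, which binds AU-rich elements, was unequal among the Msi2 -/- libraries, at 667 CPM in replicate 1 and 500 CPM in replicate 2, against 611 and 688 CPM in the controls. No other tested member had replicates so far apart, and its interval was wide (log2 fold change -0.15, 95% interval -0.60 to 0.29). Hnrpdl, listed as Hnrnpdl in RefSeq and a relative of Hnrnpd, stood at 200 and 204 CPM in control mice, against 190 and 170 CPM in Msi2 -/- mice. There the groups did not overlap, with a log2 fold change of -0.16 (SE 0.080, edgeR adjusted p = 0.455). Hnrnpd, which encodes the mRNA decay factor AUF1, had a log2 fold change of -0.01 (95% interval -0.24 to 0.22). Its ratio to Hnrpdl can be read within each library: Hnrpdl over Hnrnpd was 0.532 and 0.523 in the controls and 0.472 and 0.475 in the Msi2 -/- libraries. Hnrnpa1 and Hnrnpa3 had log2 fold changes of -0.17 and -0.15, with the limits on their assignment given above. Across the 7 genes of this family 5 lay below 0 and 2 above, with a median of -0.15.

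The F/H proteins bind runs of G. Hnrnph2, one of them, stood at 109 and 104 CPM in control mice, against 142 and 120 CPM in Msi2 -/- mice. Both Msi2 -/- libraries lay above both controls, and replicate 1 was the higher. The means were 106 ± 4.08 and 131 ± 16.1 CPM (SD, n = 2 each), or 0.30 on the log2 scale of the fit (SE 0.108). It did not pass either tool, with an adjusted p of 0.383 by edgeR and 0.190 by DESeq2. Leaving out Msi2 -/- replicate 1 gave 0.18, and leaving out replicate 2 gave 0.42.

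Its close paralog Hnrnph1 stood at 437 and 412 CPM in control mice, against 413 and 402 CPM in Msi2 -/- mice, and the groups overlapped (log2 fold change -0.06, SE 0.069). The ratio of Hnrnph2 to Hnrnph1 reads was 0.2501 and 0.2514 in the controls and 0.344 and 0.297 in the Msi2 -/- libraries. Hnrnph2 is the only member on chromosome X, and 1 pseudogene matched 56.9% of its transcript. Over the 416 tested genes of chromosome X the median log2 fold change was 0.01, and 27 had an unadjusted p under 0.05 on the higher side, 32 on the lower. Whether the difference in Xist between libraries bears on Hnrnph2 was not tested. Hnrnpf and Hnrnph3 had log2 fold changes of 0.07 and -0.04.

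The remaining hnRNP genes overlapped between groups, except the U-like pair. Hnrnpk, which binds C-rich RNA and lies in a region lost in some acute myeloid leukemias, had 507 and 521 CPM in control mice, against 514 and 505 CPM in Msi2 -/- mice. The 4 values lie within a few percent of each other (log2 fold change -0.01, 95% interval -0.19 to 0.16). Hnrnpu, a scaffold protein of the nuclear matrix, had 963 and 1131 CPM in control mice, against 1028 and 961 CPM in Msi2 -/- mice. Its relative Hnrnpul1 had 332 and 373 CPM in control mice, against 384 and 408 CPM in Msi2 -/- mice, without overlap (0.17 ± 0.089 (SE) on the log2 scale, edgeR adjusted p = 0.486). Hnrnpul2 had 414 and 424 CPM, then 448 and 444 CPM, also without overlap (log2 fold change 0.09). Hnrnpc, which binds uridine tracts, Hnrnpl, which binds CA repeats, Hnrpll, known for exon skipping of CD45 in lymphocytes, Hnrnpm and Hnrnpr had log2 fold changes between -0.11 and 0.07.

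Among the SR genes, Srsf5 was the member with the smallest p. Its protein has a pair of RNA recognition motifs, like those of Srsf4 and Srsf6. It had 259 and 268 CPM in control mice, against 221 and 219 CPM in Msi2 -/- mice. Both Msi2 -/- libraries lay below both controls, and 1 pseudogene matched 53% of its transcript. The means were 264 ± 6.83 and 220 ± 1.49 CPM (SD, n = 2 each), a change of -16.5% in the fit (log2 fold change -0.26, SE 0.063, 95% interval -0.43 to -0.09). DESeq2 called it (adjusted p = 0.0133), edgeR did not (adjusted p = 0.320). The DESeq2 call was lost whichever library was left out, at adjusted p-values of 0.359 to 0.911, while the log2 fold change by edgeR kept between -0.28 and -0.23.

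Its paralogs had log2 fold changes above 0. Srsf4 had 139 and 141 CPM in control mice, against 158 and 142 CPM in Msi2 -/- mice, just without overlap (log2 fold change 0.10, edgeR adjusted p = 0.631). Srsf6 had 441 and 367 CPM in control mice, against 453 and 403 CPM in Msi2 -/- mice, which overlapped (log2 fold change 0.08, SE 0.124). Read within each library, Srsf5 over Srsf4 was 1.87 and 1.91 in the controls and 1.40 and 1.55 in the Msi2 -/- libraries. Srsf5 over Srsf6 was 0.587 and 0.732 in the controls and 0.488 and 0.544 in the Msi2 -/- libraries. Apart from these and the ratios given above, every ratio computed overlapped between groups. Those were Hnrpll over Hnrnpl, Hnrnpul1 over Hnrnpul2, Srsf7 over Srsf3, Srsf9 over Srsf1 and Hnrnpa0 over Hnrnpa2b1. Differences between the changes of paired genes were not tested.

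Sfrs18 is listed by RefSeq under its later name Pnisr, and encodes a serine- and arginine-rich protein that interacts with pinin rather than a classical SR protein. It had 123 and 131 CPM in control mice, against 99.98 and 107.5 CPM in Msi2 -/- mice. Again both Msi2 -/- libraries lay below both controls (127 ± 6.00 against 104 ± 5.34 CPM, SD, n = 2 each). In the fit this was -0.29 on the log2 scale (SE 0.078; adjusted p = 0.333 by edgeR, 0.0695 by DESeq2). Leaving out a library moved it between -0.34 and -0.23.

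**Figure D4:**
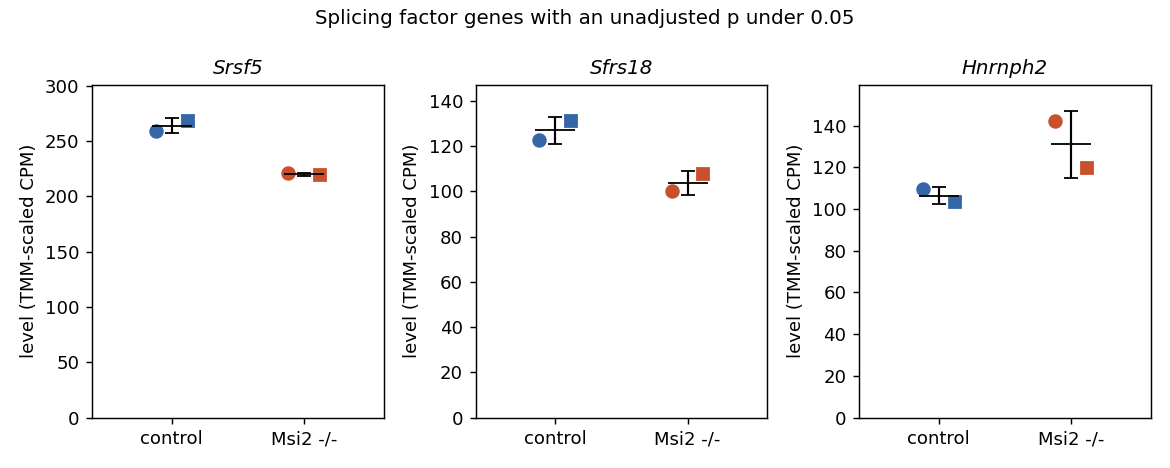
TMM-scaled CPM of Srsf5, Sfrs18 and Hnrnph2 in each library (circles replicate 1, squares replicate 2), with the mean and SD of the 2 libraries of each group as black bars; the axes start at 0. Srsf5 and Sfrs18 stand lower and Hnrnph2 higher in both Msi2 -/- libraries.

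The abundant SR genes overlapped between groups. Srsf2, the SR gene mutated in myeloid neoplasms, had 809 and 793 CPM in control mice, against 806 and 835 CPM in Msi2 -/- mice (log2 fold change 0.03, 95% interval -0.14 to 0.21). Srsf1, the founding SR protein and a proto-oncogene, had 613 and 640 CPM in control mice, against 644 and 594 CPM in Msi2 -/- mice (log2 fold change -0.02, 95% interval -0.22 to 0.19). For both genes the groups overlapped. Srsf3 and Srsf7, a closely related pair active in mRNA export, had log2 fold changes of -0.01 each, as did Srsf11. Srsf9 stood at 0.02. Srsf10, a repressor in its dephosphorylated form, was at 160 and 161 CPM in control mice, against 153 and 148 CPM in Msi2 -/- mice, without overlap (log2 fold change -0.09, edgeR adjusted p = 0.569). Of the 11 tested SR genes 4 lay above 0 and 7 below, with a median of -0.01.

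No SF3b gene passed either test. Of the 5, 4 stood slightly higher in both Msi2 -/- libraries than in both controls, as did 23.7% of all tested genes and 33.9% of those at 100 CPM or more. Sf3b1, whose protein clamps the branch point and which is recurrently mutated in myelodysplasia, had 454.4 CPM in both controls and 471 and 477 CPM in the Msi2 -/- libraries. The controls were closer to each other than to either Msi2 -/- library (log2 fold change 0.06, SE 0.0615, 95% interval -0.11 to 0.23, edgeR adjusted p = 0.706). Sf3b2 had 422 and 420 CPM in control mice, against 446 and 455 CPM in Msi2 -/- mice (0.10 ± 0.062 (SE) on the log2 scale, edgeR adjusted p = 0.558). Sf3b3 and Sf3b5 lay higher in both Msi2 -/- libraries too, with log2 fold changes of 0.06 and 0.10. Sf3b4 did not, at 77.7 and 77.4 CPM in control mice, against 85.1 and 69.8 CPM in Msi2 -/- mice. The sum of the 5 genes was 1476 and 1459 CPM in control mice, against 1550 and 1534 CPM in Msi2 -/- mice.

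The SF3a genes, for the complex that joins SF3b in the mature U2 snRNP, gave no common direction. Sf3a3 was at 122 and 128 CPM in control mice, against 118 and 113 CPM in Msi2 -/- mice, the groups not overlapping (-0.12 ± 0.067 (SE) on the log2 scale, edgeR adjusted p = 0.504). Sf3a1 and Sf3a2 overlapped between groups, at log2 fold changes of -0.05 and 0.08. Over all 39 tested members, 9 had both Msi2 -/- libraries above both controls, or 23.1%, where 23.7% of all tested genes did. Another 6 had both below, or 15.4%, where 24.6% of all tested genes did. Among genes at 100 CPM or more, 9 of 36 members (25%) had both above, where 33.9% of all such genes did, and 5 of 36 (13.9%) had both below, where 18.1% did.

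Other genes of the splicing pathway also gave no edgeR call, where edgeR called only 1 of all 13215 tested genes. Of 110 measured genes in 8 lists (SR kinases, SR-related proteins, U1 and U2 factors, Sm and LSm proteins, tri-snRNP proteins, other splicing regulators and nonsense-mediated decay factors), 106 were tested and edgeR called 0. By edgeR's unadjusted p under 0.05, 3 stood higher and 2 lower, where 6.69% and 6.17% of all tested genes did. DESeq2 called 0 higher and 1 lower, where it called 3.21% and 2.79% of all genes it tested. The median log2 fold change was -0.02, with 41 above 0 and 65 below. Over all tested genes 6574 lay above 0 and 6641 below.

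The DESeq2 call was Fubp3, which encodes a single-stranded nucleic acid binding protein. It had 50.5 and 53.6 CPM in control mice, against 37.3 and 32.7 CPM in Msi2 -/- mice (log2 fold change -0.57, SE 0.108, DESeq2 adjusted p = 0.00112, edgeR adjusted p = 0.293). Both Msi2 -/- libraries lay below both controls. Luc7l, a U1-associated factor, was the other gene lower at an unadjusted p under 0.05 (log2 fold change -0.27, SE 0.075). The 3 higher ones were Clk3, a kinase that phosphorylates SR proteins (0.32, SE 0.088), Snrpe, a subunit of the Sm ring (0.22, SE 0.068), and Mbnl1, a muscleblind splicing regulator (0.21, SE 0.066), all as log2 fold changes. Of the 7 SR kinase genes, Clk3 was the only one past that threshold, and Srpk1 had a log2 fold change of -0.18 (edgeR adjusted p = 0.422). Ptbp1, the polypyrimidine tract binding repressor, and U2af1, which reads the end of the intron, each had log2 fold changes of 0.00 after rounding.

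In the annotation, the members carry more transcripts marked for nonsense-mediated decay than other genes. In GENCODE M21, 21 of 39 tested members (53.8%) had at least 1, where 29% of 12493 tested protein-coding genes did. Retained-intron transcripts were listed for 71.8% of the members and 58.5% of those genes. The members also had more annotated transcripts in all, with a median of 7 against 5 (over genes with a 3' untranslated region, 3' UTR). Gene-level counts sum over such transcripts, so the files do not show whether their use changed. With such a transcript, 8 members lay above 0 and 13 below. Without one, 10 lay above and 8 below. Over all tested protein-coding genes, 1780 lay above and 1840 below with such a transcript, and 4516 above and 4357 below without one.

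Musashi proteins bind RNA with a UAG core, and GTAGT and ATAGT, as written in DNA letters, were searched in the 3' UTR of each principal transcript, on the transcript's own strand. At least 1 copy was found in 31 of 38 tested members with a 3' UTR (81.6%), where 58.3% of 12280 tested protein-coding genes had one. The density was 2.49 copies per kb in the members and 1.46 in all those genes. The members' 3' UTRs were richer in A and T, at 62.2% against 55.9%, and the same letters in reverse order (TGATG or TGATA) also occurred more often, at 2.70 against 2.08 per kb. Among the 31 members with a copy, 12 log2 fold changes were above 0 and 19 below. Of the 7 without one 6 lay above 0 and 1 below, Hnrnph2 and Hnrnpa2b1 being among them. Over the tested protein-coding genes with a 3' UTR, 3391 lay above 0 and 3767 below with a copy. Without a copy, 2814 of those genes lay above and 2308 below. The medians with and without a copy were -0.01 and 0.02 in the members, and -0.02 and 0.03 in those genes. Matches are letters in a window, not measured binding.

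The members with the most copies were Hnrnpu (18), Srsf1 (13) and Hnrnpd (11), whose log2 fold changes were -0.07, -0.02 and -0.01. Their 3' UTRs were also the longest among the members, at 5011, 4149 and 5429 bases. Srsf5 had 2 copies in 529 bases of 3' UTR and Sfrs18 had 8 in 1532 bases. Sites of these 2 genes are shown as examples of the letters counted, for the members with the smallest p, and whether they bear on the genes' levels was not tested. The first 2 of each follow, from GENCODE M21 transcripts on build GRCm38, plus strand, 5′ to 3′, with the motif in capitals. Those of Srsf5 lie at chr12:80950196-80950224 and chr12:80950326-80950354, and those of Sfrs18 at chr4:21875132-21875160 and chr4:21875353-21875381.
Srsf5 site 1: tgtctgaagtatATAGTttgtgtatattg
Srsf5 site 2: ttaaactaacgaATAGTtttggacacttt
Sfrs18 site 1: ttttttcaagaaATAGTacttaataagac
Sfrs18 site 2: tcttctccaagaATAGTttgtcaaagttt

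Upstream of their start sites, some members held the core letters bound by ETS transcription factors. Promoter windows of 250 bases before the start were taken from RefSeq on GRCm38.p6 for 35 of the 40 genes, in 48 windows, and CCGGAAG was searched on both strands. It was in 15 windows (31.2%) of 11 genes, where 13.1% of 13323 windows of tested genes and 6.9% of all 32851 windows held it. For Srsf4 and for Sf3b2 it was counted in overlapping windows that share the same site. The SF3a genes all had it, with Sf3b2 and Sf3b3. Srsf5 had it on each strand, and Hnrnph2 did not. CACGTG, the letters bound by MYC, was in 6.2% of the members' windows and 8.1% of those of tested genes, and GGGCGG, which reads as an SP1-type GC box, in 75.0% and 56.0%. The other letters searched were CCAAT, in 47.9% and 35.5%, TATAAA, in 8.3% and 6.7%, and TGACGTCA, in 0% and 2.6%. These too are matches of letters, not measured binding. The windows of the 3 SF3a genes and of Srsf5 are shown around the motif, since they let the spacing from the start be seen across genes of 1 complex and the gene with the DESeq2 call. The capitals mark CCGGAAG or its complement, and each is written 5′ to 3′ on the gene's strand, here always plus. They are at chr11:4160335-4160353, chr10:80798647-80798677, chr4:124714759-124714789, chr12:80945397-80945427 and chr12:80945464-80945494, and the motif begins 7, 76, 90, 90 and 23 bases before the start, in this order.
Sf3a1: gagagggcgggaCCGGAAG
Sf3a2: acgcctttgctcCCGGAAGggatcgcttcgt
Sf3a3: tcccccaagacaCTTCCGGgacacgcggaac
Srsf5, other strand: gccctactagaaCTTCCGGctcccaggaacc
Srsf5, gene strand: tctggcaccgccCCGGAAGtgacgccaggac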

How the data were processed

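RNA libraries of 2 Msi2 -/- and 2 Msi2 flox/flox mice were grouped by their titles. The authors deposited raw counts, 1 whole number per gene. Per the submitters' processing notes, the tools were Trimmomatic, STAR, HTSeq and DESeq, on mm9. No label states the annotation or the strand setting, so reads of overlapping or antisense genes cannot be told apart. The 5 closing rows that name no gene held 19.1% to 20.1% of counts and were left out. In R 4.3.3, edgeR 4.0.16 (filterByExpr, minimum count 10 and total 15; TMM; quasi-likelihood test with group as the only term) was fitted across all 13215 genes that passed, with Benjamini-Hochberg adjustment and a threshold of 0.05. Standard errors came from the F statistic, and 95% intervals used 4.29 degrees of freedom. DESeq2 1.42.0 was the alternative and gave an adjusted p for 13038 genes. Chi-square statistics per gene were 51.7 between controls and 125 between Msi2 -/- libraries, so each counts as 1 sample, and p-values measure only the spread between these libraries. The tests were checked on simulated data, with changes larger than any fitted to a member here. Pseudogenes were matched with blastn 2.17.0. Members, lists and tests were chosen with earlier results of these data known. Values in every library are given for members past an unadjusted edgeR p or a DESeq2 adjusted p of 0.05, the 2 most abundant of each set, Sf3b1, Srsf2 and Hnrnpk. Others named with values were chosen after their values were seen.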

Additional observations from a re-analysis of the deposited data

How the results depend on the processing

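edgeR called 0 members in either direction under every scaling, filter, likelihood ratio test and block tried, and DESeq2 called 1 lower (Srsf5) and 0 higher. Most of these edgeR settings called almost no gene at all. With TMM, RLE or upper-quartile scaling, or the 1 CPM filter, 0 of all tested genes were called higher and 1 lower. Without a filter 6 were called lower, and with the replicate block 0. Such settings could hardly have called a member. The likelihood ratio test called 120 of 13215 genes higher and 192 lower, and 0 of the 39 members. At so low a share, a list of 39 genes would hold few calls or none. The member higher at an unadjusted p under 0.05 (Hnrnph2) was 0 members under upper-quartile scaling, with a filter at 1 CPM in 2 libraries, by the likelihood ratio test and among members with no near-identical pseudogene, and 0 to 1 with a library left out. The members lower ranged from 0 (without control replicate 2) to 2 with a library left out, and were 1 (Sfrs18) among members with no near-identical pseudogene, since Srsf5 matches 1. For the last alternative, chosen after seeing the data, fewer genes enter; otherwise the cause was not tested. The replicate numbers shared by the groups are not said to pair mice; deviations from the group means correlated at 0.0393 over genes, and with the replicate block the members' median log2 fold change was -0.01, with 1 above and 2 below at p = 0.05 before adjustment. Leaving out a library left 1 mouse in its group, taken to vary like the other group. Of the 10 genes chosen by rule, Srsf1, Hnrnpa2b1 and Hnrnpk changed sign under some alternative, none of them called.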
